A study of Mus musculus with 6 samples.

Results

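The 141 genes described here are the better-measured autosomal genes that GENCODE M21 types as antisense (71 genes) or TEC (70 genes), out of 55450 genes counted in the libraries. They were chosen by a mean expected count of at least 20 over all 6 libraries, without regard to genotype, and 6 genes that the choice names were left out: Gm43461, A430103D13Rik, Gm12953, Kcnq1ot1, Airn and Haglr. The files hold 2959 antisense and 3219 TEC genes, of which 6117 lie on autosomes and 145 reached the mean count before those 6 genes were left out. The weakest member, Gm45477, had a mean count of 20.01, and the best-measured gene just below the threshold, Gm26737, had 19.91. The median member had a mean count of 46.15 and the strongest, Gm38312, 6047.

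The RNA-seq experiment compared mouse embryonic stem cells that were Hoxd12-/- with wild-type (WT) embryonic stem cells, with 3 libraries of each. Both groups were of strain C57BL6, were labelled as E3.5 embryo, and grew in mES+2i medium, and a stranded mRNA kit made the libraries. Nothing in the labels ties the libraries to separate cultures, clones or embryos. A p-value here therefore sets the difference between genotypes against the scatter of replicate libraries, and that scatter may be technical only. Hoxd12, a homeobox gene known for limb patterning, had 0 counts in all 6 libraries, so the files give no check of the genotype labels.

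An antisense gene is transcribed from the strand opposite to a neighbouring or overlapping coding gene. Some antisense RNAs of the mouse act on their neighbours, as Airn does at an imprinted cluster, but most have no known function. TEC is the annotation's label for loci that still await experimental proof: clusters of unspliced sequence tags with polyadenylation features, many of them inside introns of coding genes. Both classes often hold copies of transposable elements, among them the B2 short interspersed elements of rodents, which are themselves transcribed and are plentiful in introns and noncoding RNAs.

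Many of the 141 genes share a stretch of sequence, which is shown first because the changes described further on were divided along it. The 25-base word below was the one held by the most members in either direction: 32 members held it exactly as written, 20 held its reverse complement and 50 held at least one of them. It was chosen by the number of members that hold it and not by their fold changes, but after the data had been seen. Its reverse complement corresponds to part of the mouse B2 element as known from general knowledge; no repeat annotation was used. Below the word stand 4 windows of 165 bases around it, read 5′ to 3′ on the strand of the gene from the GENCODE M21 transcripts (GRCm38). Capitals in the windows mark bases covered by 16-base words that at least 8 members hold in either direction. The first 3 windows come from genes that were lower in Hoxd12-/- cells: Gm42729 at chr5:65626643-65626807 on the plus strand, Gm4419 at chr12:21419538-21419702 on the plus strand and Gm44639 at chr7:79280404-79280568 on the plus strand. The last comes from Gm43766 at chr14:52259461-52259625 on the plus strand, which holds the same stretch and was not called.
shared word: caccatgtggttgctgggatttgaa
Gm42729: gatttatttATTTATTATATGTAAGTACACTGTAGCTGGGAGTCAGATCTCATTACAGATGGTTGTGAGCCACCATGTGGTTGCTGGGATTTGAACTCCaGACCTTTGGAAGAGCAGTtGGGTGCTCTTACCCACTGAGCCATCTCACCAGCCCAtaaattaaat
Gm4419: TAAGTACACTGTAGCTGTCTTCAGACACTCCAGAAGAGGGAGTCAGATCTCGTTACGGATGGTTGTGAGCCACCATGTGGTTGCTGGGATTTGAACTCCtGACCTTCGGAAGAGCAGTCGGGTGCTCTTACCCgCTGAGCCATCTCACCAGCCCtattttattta
Gm44639: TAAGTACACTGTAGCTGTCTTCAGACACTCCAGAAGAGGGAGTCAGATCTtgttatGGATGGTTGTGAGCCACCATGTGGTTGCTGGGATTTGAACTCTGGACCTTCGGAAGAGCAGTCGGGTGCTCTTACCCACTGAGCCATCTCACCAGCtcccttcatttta
Gm43766: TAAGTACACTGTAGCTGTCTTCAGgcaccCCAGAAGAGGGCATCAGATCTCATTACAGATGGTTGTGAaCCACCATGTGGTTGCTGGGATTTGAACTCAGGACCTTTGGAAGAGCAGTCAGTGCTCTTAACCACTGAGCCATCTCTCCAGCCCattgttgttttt

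The libraries held 5412577 to 6280934 counts in the Hoxd12-/- group and 5789159 to 6263828 in the WT group, so that 3 counts correspond to between 0.478 and 0.554 CPM (library-size scaled counts). Hoxd12-/- replicate 2 stood apart: ribosomal RNA genes took 1.65% of its counts, against 0.103% to 0.140% in the other 5 libraries, and lincRNA genes took 1.40%, against 0.716% to 0.914%. The results below are therefore also given without it where they rest on it. All 10 embryonic stem cell markers examined were measured, with summed levels of 8889 to 9392 CPM in Hoxd12-/- and 8745 to 9363 CPM in WT libraries. Summed fibroblast and feeder markers, of which Col3a1, Postn, Dcn and Lum were at 0, were 3.68 to 5.54 CPM in Hoxd12-/- and 6.84 to 9.43 CPM in WT libraries. Summed neural markers were 34.3 to 39.0 CPM in Hoxd12-/- and 42.1 to 48.4 CPM in WT libraries, and trophectoderm markers 42.3 to 45.8 and 47.2 to 54.0 CPM. Summed primitive endoderm markers were 5.86 to 11.2 CPM in Hoxd12-/- and 3.42 to 6.46 CPM in WT libraries. The part of these cell types in the results was not tested, and in bulk RNA fewer cells of a type and less RNA per cell cannot be told apart.

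The first question was how the antisense and TEC genes differed between Hoxd12-/- and WT cells. Of the 141 members, 58 (41.1%) were lower and 8 (5.67%) were higher in Hoxd12-/- cells, and 75 were not called, by edgeR's quasi-likelihood test with Benjamini-Hochberg adjusted p below 0.05 over all 12891 tested genes. In the same fit 14.4% of all tested genes were lower and 12.1% were higher, so the share called lower was above the background and the share called higher was below it. The median log2 fold change, Hoxd12-/- over WT, was -0.38 over the members, against 0.02 over all tested genes and 0.02 over the 11803 coding genes. All 141 members passed the count filter, which is what a mean count of 20 gives here. The called members had a median absolute log2 fold change of 1.01, against 0.37 over all called genes. The spread between libraries was small, with a common biological coefficient of variation of 6.74%.

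Both annotation types were lower more often than higher. Of the 70 TEC members 33 were lower and 5 higher, with a median log2 fold change of -0.53. Of the 71 antisense members 25 were lower and 3 higher, with a median of -0.27. The 144 tested antisense and TEC genes below the mean count of 20, or otherwise outside the members, had 15 lower and 3 higher, with a median of -0.15. The 264 tested lincRNA genes, which are noncoding genes between coding genes, had 62 lower and 12 higher, with a median of -0.21. Calls were more frequent among the better-counted genes: 16 of the 22 members with a mean count of 200 or more were lower, 22 of the 44 between 50 and 200, and 20 of the 75 between 20 and 50. Of the called members, 31 were at least 2-fold lower and 3 at least 2-fold higher. All libraries of one group lay outside the range of the other in 55 of the 58 lower and in all 8 higher genes. Neither 2-fold changes nor such separation were counted over all called genes, so neither is read as particular to the members. When each of the 6 libraries was left out in turn, 48 of the lower and 6 of the higher members were called in every fit. Calls kept in every fit were not counted over all tested genes. Without Hoxd12-/- replicate 2 alone, 56 members were lower and 8 higher. That fit called 1787 of all 13211 tested genes lower and 1423 higher.

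**Figure D1:**
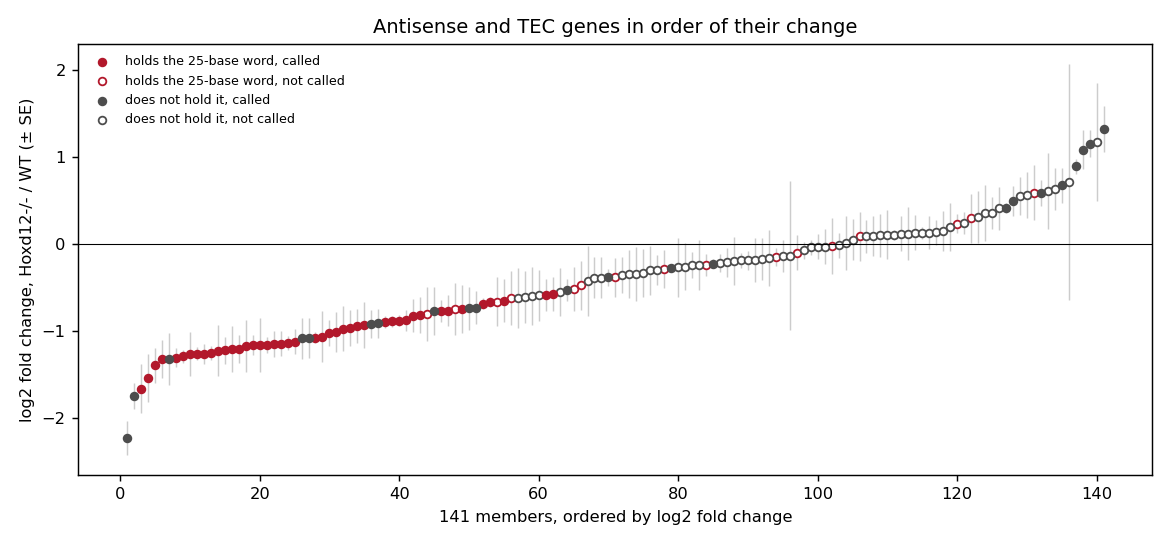
The 141 antisense and TEC genes in order of their log2 fold change, Hoxd12-/- over WT (vertical axis, with standard error bars), where filled points are called at adjusted p below 0.05 and red points hold the 25-base word with up to 3 mismatches. Red filled points make up most of the lower end (44 of the 58 lower calls), and none of the 8 higher calls is red.

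Most of the lower calls, 44 of 58, were in genes that hold the shared word. The word was present with up to 3 mismatches, in either direction, in the annotated exons of 60 members (42.6%), against 11.8% of all tested genes and 11.2% of coding genes. Of these 60, 44 were lower and 0 were higher, with a median log2 fold change of -0.91. Without adjustment, 1 of them, 1600020E01Rik, was higher at p below 0.05 in edgeR, and DESeq2 gave 40 lower and 0 higher. Of the 81 members without it, 14 were lower and 8 higher, with a median of -0.14. These counts describe a division made after the values were seen and carry no test. Reads from the shared stretch may have been divided between genes by the authors' quantification. The genes with the word may therefore not be independent observations, and this was not tested.

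The same division held within each annotation type. Among TEC genes, 29 of 34 with the word were lower and 0 higher (median -0.98), against 4 lower and 5 higher of 36 without it (median 0.03). Among antisense genes, 15 of 26 with the word were lower and 0 higher (median -0.79), against 10 lower and 3 higher of 45 without it (median -0.18). Direction along the transcript made a small difference: 30 of the 39 members that hold the word as written were lower (median -1.06), and 17 of the 27 that hold it reversed (median -0.77), with 6 members holding both. Genes with the word were longer, with a median of 2795.5 exonic bases against 1643 without it. At a similar length of 1000 to 2500 bases, 17 of 19 genes with the word were lower and 0 higher, against 4 lower and 4 higher of 28 without it.

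Other noncoding genes showed a similar division, and coding genes showed less of one. Among the tested antisense and TEC genes outside the members, 11 of 35 with the word were lower and 0 higher, against 4 lower and 3 higher of 109 without it. Among lincRNA genes, 26 of 50 with the word were lower and 0 higher (median -0.74), against 36 lower and 12 higher of 214 without it (median -0.13). Among coding genes, 282 of 1327 with the word were lower and 164 higher (median -0.03), against 1353 lower and 1330 higher of 10476 without it (median 0.03). Coding genes with an exact copy had 178 lower and 40 higher of 494, with a median of -0.12. The 3 genes of these types that the choice of members left out by name and that hold the word were also lower: Gm43461 by a log2 fold change of -1.09, A430103D13Rik by -1.05 and Gm12953 by -0.90. Kcnq1ot1, an imprinted antisense RNA without the word, had a log2 fold change of -0.02 and was not called, and Airn and Haglr had too few counts to be tested.

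**Figure D2:**
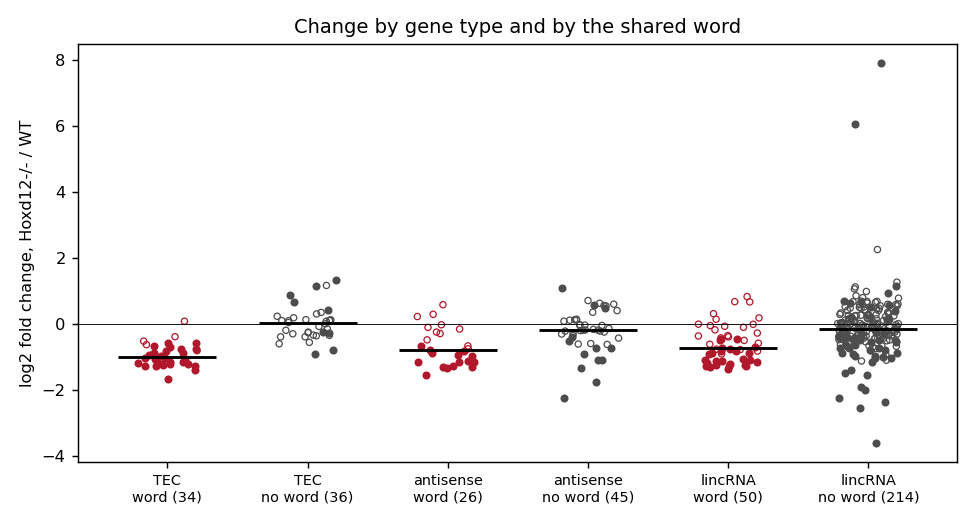
Log2 fold change, Hoxd12-/- over WT (vertical axis), of the TEC and antisense members and of all tested lincRNA genes, each divided by whether the transcript holds the 25-base word with up to 3 mismatches; the number of genes stands in parentheses, filled points are called, and bars are medians. The medians of the groups with the word are -0.98, -0.79 and -0.74, and those without it are 0.03, -0.18 and -0.13.

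The genes with the word took up a smaller part of the Hoxd12-/- libraries than of the WT libraries. The 60 members with the word made up 0.0938%, 0.0978% and 0.0990% of the Hoxd12-/- libraries, against 0.177%, 0.175% and 0.178% of the WT libraries. The groups did not overlap, and the means were 0.0969% ± 0.0027 in Hoxd12-/- and 0.177% ± 0.0018 in WT libraries (SD, n = 3 each). The 81 members without the word made up 0.278%, 0.262% and 0.288% of the Hoxd12-/- libraries, against 0.256%, 0.254% and 0.247% of the WT libraries. All 3 Hoxd12-/- libraries lay above the WT libraries here, with means of 0.276% ± 0.013 in Hoxd12-/- and 0.252% ± 0.0044 in WT libraries. That direction rested on 1 gene, Gm38312, which alone took up 0.117% ± 0.013 of the Hoxd12-/- and 0.0851% ± 0.0061 of the WT libraries. Without it, a comparison added after seeing the data, the other 80 genes made up 0.157%, 0.160% and 0.160% of the Hoxd12-/- libraries, against 0.164%, 0.170% and 0.168% of the WT libraries, so that all 3 Hoxd12-/- libraries lay below the WT libraries. Hoxd12-/- replicate 2, which had the most ribosomal RNA, lay between the other Hoxd12-/- libraries for the genes with the word and below them for the genes without it.

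**Figure D3:**
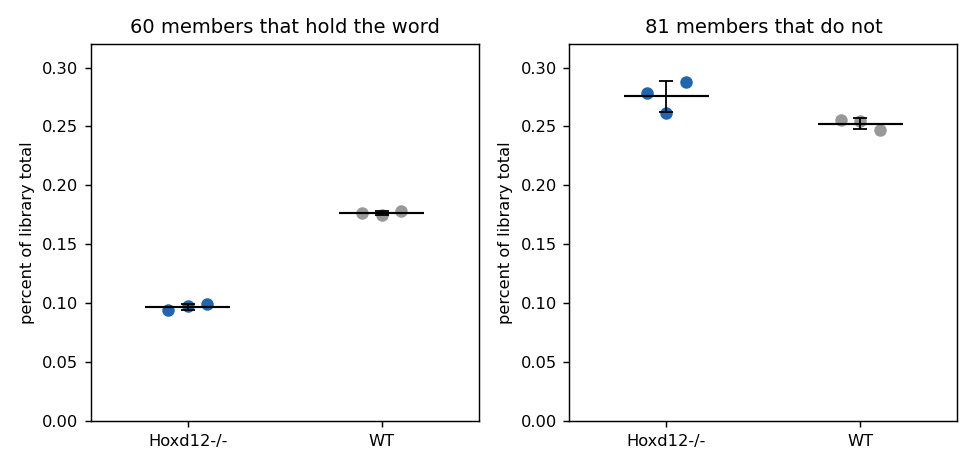
Summed expected count as a percent of the library total (vertical axis, from 0), for the 60 members that hold the 25-base word with up to 3 mismatches (left) and the 81 that do not (right), with a point for each of the 3 Hoxd12-/- and 3 WT libraries, the mean and the SD. The genes with the word take up 0.0938% to 0.0990% of Hoxd12-/- and 0.175% to 0.178% of WT libraries.

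Several of the genes with the largest decreases hold the word. Gm42729, a single-exon TEC gene at chr5:65623934-65626863 on the strand opposite to Pds5a, had expected counts of 15.4, 7.68 and 15.6 in Hoxd12-/- libraries, against 41.9, 44.1 and 35.4 in WT libraries. Its log2 fold change was -1.66 ± 0.28 (SE, adjusted p = 3.16e-05, edgeR). Gm4419, an antisense gene of 2 exons at chr12:21417323-21421064 whose start overlaps that of Ywhaq head to head, had 235, 261 and 272 counts in Hoxd12-/- libraries, against 590, 635 and 621 in WT libraries. Its groups were well apart, with a log2 fold change of -1.29 ± 0.08 (adjusted p = 5.66e-15, edgeR).

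Others of this kind lie inside coding genes on the same strand. Gm44639, a TEC gene at chr7:79277767-79280775 within an intron of the hydrolase gene Abhd2, had 238, 214 and 249 counts in Hoxd12-/- libraries, against 543, 525 and 576 in WT libraries. Gm44044, a TEC gene at chr6:100272610-100273698 within Rybp, had 332, 306 and 335 counts in Hoxd12-/- libraries, against 635, 723 and 654 in WT libraries. Neither gene's groups overlapped, with log2 fold changes of -1.26 ± 0.07 for Gm44639 and -1.07 ± 0.06 for Gm44044 (adjusted p = 6.50e-15 and 1.05e-14, edgeR). Gm48632, a TEC gene that shares 53 exon bases with the corepressor gene Rcor1, had 165, 164 and 111 counts in Hoxd12-/- libraries, against 344, 381 and 413 in WT libraries, and a log2 fold change of -1.39 ± 0.20 (adjusted p = 0.0044, edgeR). The remaining members with the word among the 10 largest decreases were Gm17029 in the peroxisomal gene Pex14 (log2 fold change -1.54), Gm10389 in Rai14 (-1.32), Gm11525 near Cdk5rap3 (-1.31) and Gm38047 in Sclt1 (-1.26).

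Among the genes with the highest TPM (a level scaled by transcript length and library size), very short loci stood out. Gm37750, a TEC gene of 129 exonic bases, had 298, 255.5 and 288 counts in Hoxd12-/- libraries, against 459, 576 and 501 in WT libraries, a log2 fold change of -0.89 ± 0.07 (adjusted p = 2.34e-11, edgeR). Gm47551, an antisense gene of 165 exonic bases within Fcho2, had 525, 418 and 509 counts in Hoxd12-/- libraries, against 767, 771 and 719 in WT libraries, a log2 fold change of -0.67 ± 0.06. Both hold the word in the reversed direction, and neither showed an overlap between groups. Gm43558, a TEC gene of 210 exonic bases without the word and with the highest mean TPM of all members (4820), fell less: 2265, 2247 and 2472 counts in Hoxd12-/- libraries, against 2430, 2926 and 2682 in WT libraries, with overlapping groups and a log2 fold change of -0.22 ± 0.05 (adjusted p = 0.0032). Gm44709, of whose 448 exonic bases 433 lie within exons of Supt5 on the other strand, had 250, 269 and 244 counts in Hoxd12-/- libraries, against 296.5, 425 and 361 in WT libraries (-0.52 ± 0.13, adjusted p = 0.013), a call lost without any 1 of 3 of the libraries (Hoxd12-/- replicate 1 or 3, or WT replicate 3; adjusted p of 0.052 to 0.095). Gm37401, antisense to the small GTPase gene Rhoa, had overlapping groups and was not called (-0.21 ± 0.10). TPM of such short genes depends on the length correction, and counts are the more direct value.

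The largest decrease of all 141 genes was in a gene without the word. 4933438K21Rik, an antisense gene of 3 exons at chr4:147063366-147068436 that lies 2572 bases from the zinc finger gene Rex2, had 19, 14 and 27 counts in Hoxd12-/- libraries, against 89, 93 and 94 in WT libraries. The groups were far apart, with a log2 fold change of -2.23 ± 0.20 (adjusted p = 1.24e-10, edgeR), and its counts were whole numbers in every library. Gm16344, on the strand opposite to the myosin gene Myo7b, had 34.8, 45.8 and 44.5 counts in Hoxd12-/- libraries, against 137, 149 and 126 in WT libraries, a log2 fold change of -1.74 ± 0.15 (adjusted p = 1.28e-10). Of its 1527 words of 31 bases it shares 228 with Gm48754, another member that was lower (-1.08). Reads from the shared part may not be told apart. Gm13580, with 15, 14 and 12 counts in Hoxd12-/- libraries, against 32, 32 and 37 in WT libraries, was the last of the 10 largest decreases without the word (-1.32 ± 0.30, adjusted p = 0.00095).

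**Figure D4:**
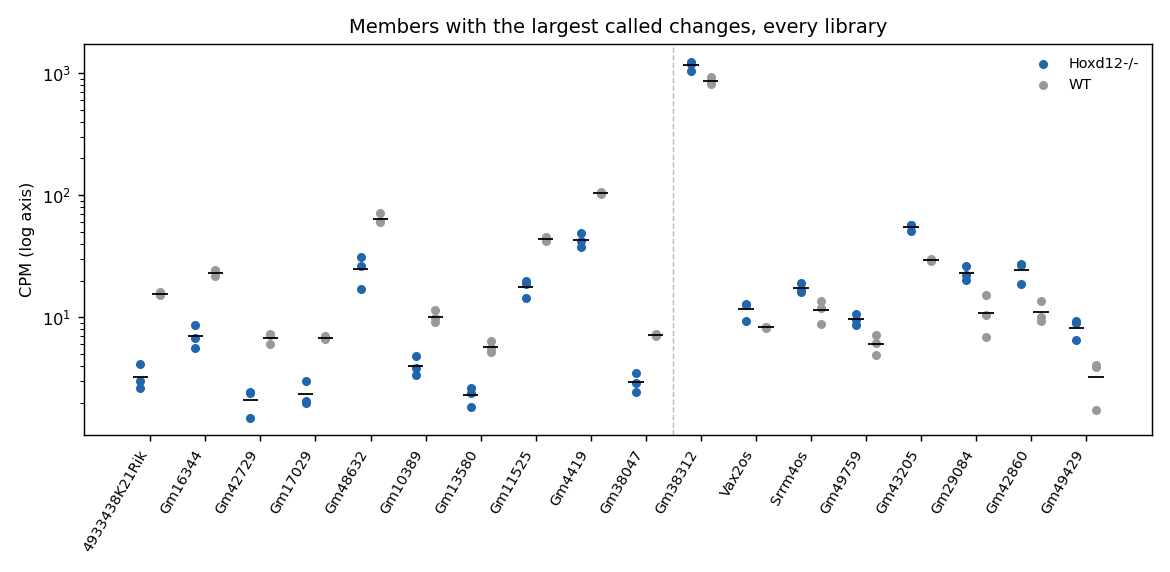
CPM on a log axis (vertical) in each of the 3 Hoxd12-/- and 3 WT libraries for the 10 lower (left of the dashed line) and the 8 higher members with the largest called changes, with the mean as a bar. The points of the 2 genotypes do not overlap for any of these 18 genes, which was a condition of their choice.

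All 8 genes that were higher in Hoxd12-/- cells lack the word. The most abundant was Gm38312, a single-exon TEC gene at chr1:89097073-89098818 within Sh3bp4 on the same strand, with 7411, 5519 and 8031 counts in Hoxd12-/- libraries, against 5305, 5275 and 4738 in WT libraries. The groups did not overlap, but Hoxd12-/- replicate 2 was close to the WT libraries in counts, and the log2 fold change was 0.42 ± 0.06 (adjusted p = 3.41e-05, edgeR). Gm43205, a TEC gene near the mitochondrial dehydrogenase gene Acad9, had 357, 304 and 329 counts in Hoxd12-/- libraries, against 173, 182 and 169 in WT libraries, a log2 fold change of 0.89 ± 0.09 (adjusted p = 7.92e-10). Gm49429, near the cytochrome P450 gene Cyp2d12, had 41.2, 49.5 and 58.4 counts in Hoxd12-/- libraries, against 10.4, 24.8 and 22.7 in WT libraries, the largest increase (1.32 ± 0.26, adjusted p = 0.00023). Gm43205 and Gm49429 share 437 of their 31-base words, of which the first has 1938 and the second 1846. Their counts may therefore not be independent observations, and this was not tested.

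A second pair of higher genes also shares sequence. Gm42860, a TEC gene 1001110 bases from the nearest coding gene, had 170, 99.7 and 174 counts in Hoxd12-/- libraries, against 77.5, 56.8 and 59.0 in WT libraries (log2 fold change 1.16 ± 0.16, adjusted p = 1.68e-06). Gm29084, an antisense gene within Pard3b, had 140, 107 and 172 counts in Hoxd12-/- libraries, against 59.6, 93.5 and 40.5 in WT libraries (1.09 ± 0.22, adjusted p = 0.0038). They share 1057 of their 31-base words, which is most of those in Gm29084. The reads of such copies were divided by the authors' quantification, and the rise of either gene alone is uncertain.

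The other higher genes were smaller in effect. Srrm4os, antisense to the neural splicing regulator gene Srrm4, had 106, 102 and 104 counts in Hoxd12-/- libraries, against 51, 83 and 70 in WT libraries (0.59 ± 0.15, adjusted p = 0.0036), with whole counts in every library. Gm49759, which shares 767 exon bases with the glycolytic gene Pkm, had 66.6, 45.8 and 61.9 counts in Hoxd12-/- libraries, against 41.1, 29.8 and 35.8 in WT libraries (0.68 ± 0.20, adjusted p = 0.011). Vax2os, antisense to the eye-patterning homeobox gene Vax2, had 81.4, 49.0 and 81.6 counts in Hoxd12-/- libraries, against 48.3, 51.0 and 48.0 in WT libraries (0.49 ± 0.17, adjusted p = 0.032). Srrm4os kept its groups apart in counts, whereas replicate 2 of the Hoxd12-/- group lay among the WT counts for Vax2os. The calls of Gm49759 and Vax2os were lost with DESeq2 (adjusted p = 0.073 and 0.17), and on both TPM scales (adjusted p of 0.051 to 0.058). The call of Gm49759 was also lost without Hoxd12-/- replicate 1 (adjusted p = 0.066) or WT replicate 2 (adjusted p = 0.075), and that of Vax2os without any 1 of 5 libraries, Hoxd12-/- replicate 2 being the exception.

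The better-known antisense genes were mostly not called. Tug1, a long noncoding RNA needed for retinal development and male fertility in the mouse, had 478, 396 and 434 counts in Hoxd12-/- libraries, against 381, 428 and 364 in WT libraries, with overlapping groups and a log2 fold change of 0.13 ± 0.07 (adjusted p = 0.17, edgeR). Gt(ROSA)26Sor, the noncoding transcript of the ROSA26 locus widely used for transgene insertion, had 34.1, 30.3 and 27.5 counts in Hoxd12-/- libraries, against 31.6, 29.5 and 39.8 in WT libraries (-0.17 ± 0.24). Panct2 had 41.5, 32.5 and 43.0 counts in Hoxd12-/- libraries, against 28.0, 18 and 27.0 in WT libraries, groups that did not overlap. Its change (0.63 ± 0.25) missed the threshold with an adjusted p of 0.055 in edgeR. On both TPM scales Panct2 was called higher (adjusted p = 0.031 and 0.041, limma). Rab10os and Rab26os, antisense to genes of Rab GTPases, which direct vesicle transport, and Sp3os had log2 fold changes of -0.03, 0.13 and -0.02 with overlapping groups. Phtf1os had 0.56 ± 0.26 and overlapping groups. Brip1os, which holds the word reversed, was an exception to the division above, with 165, 134 and 189 counts in Hoxd12-/- libraries, against 177, 176 and 176 in WT libraries (-0.15 ± 0.10, adjusted p = 0.31).

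The position of a member relative to coding genes came next. Of the 141 members, 109 overlap a coding gene and 32 do not. Strand here is relative to the coding gene paired with the member, while shared exon bases were counted over all overlapping coding genes. On the opposite strand, 62 members share exon bases with a coding gene (18 lower, 1 higher, median -0.24). Another 13 overlap on that strand without shared exon bases (6 lower, 2 higher, median -0.38). On the same strand, 30 members, all of them TEC genes, lie within the coding gene without shared exon bases (19 lower, 1 higher, median -0.71). A further 4 on the same strand share exon bases with a coding gene (2 lower, 1 higher). The 32 without an overlap had 13 lower and 3 higher, with a median of -0.26. Within the 30 same-strand TEC genes, 17 of 19 with the word were lower and 0 higher, against 2 lower and 1 higher of 11 without it, and among the 32 without an overlap 10 of 12 with the word were lower and 0 higher, against 3 lower and 3 higher of 20 without it. All 70 TEC members have a single exon, as do 13 of the antisense members.

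Coding genes that overlap a member were higher more often than lower. Of the 88 distinct overlapping coding genes that were tested, 18 (20.5%) were higher and 5 (5.68%) lower in Hoxd12-/- cells, with a median log2 fold change of 0.12. Of all 11803 tested coding genes 12.7% were higher and 13.9% lower. Against a minimum fold of 1.2 (edgeR's glmTreat), 3 of the 88 were higher and 2 lower. The same fit called 273 of all 12891 tested genes higher and 533 lower. The log2 fold change of the member and that of its coding gene had a Pearson correlation of 0.054 and a Spearman correlation of 0.071 over 89 pairs, given as a description, since the pairs share libraries, depth and in part exon sequence. Of the 36 lower members with a tested coding gene, 10 had a coding gene that was higher, 3 had one that was lower, and 23 had one that was not called. The 3 pairs with both genes lower were Gm4419 with Ywhaq, Gm48146 with Ccar1 and Gm26885 with Pim1, and Vax2os with Vax2 was the only pair with both genes higher. Pim1, a kinase gene, had 358, 318 and 399 counts in Hoxd12-/- libraries, against 463, 500 and 442 in WT libraries (-0.41 ± 0.07), and its antisense gene Gm26885 had 80.2, 62.7 and 99.6 counts in Hoxd12-/- libraries, against 140.2, 141 and 124 in WT libraries (-0.77 ± 0.13). Vax2 had 53, 41 and 69 counts in Hoxd12-/- libraries, against 26, 32 and 26 in WT libraries (0.92 ± 0.21). In both pairs the groups of the coding gene did not overlap.

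The ratio of member to coding gene within each library was tested directly, by limma on the difference of log2 CPM over 331 pairs of a noncoding and a coding gene. It was lower in Hoxd12-/- cells for 27 and higher for 2 of the 89 member pairs, with a median log2 ratio change of -0.50, while over all 331 pairs 16.6% were lower and 1.81% higher, with a median of -0.26. The members are themselves part of those 331 pairs. The ratio was lower in 14 of 25 same-strand pairs without shared exon bases (median -0.85), and in 10 of 53 opposite-strand pairs with shared exon bases (median -0.36). Of the 42 pairs whose member holds the word 24 were lower and 0 higher, against 3 lower and 2 higher of 47 whose member does not. Without Hoxd12-/- replicate 2 the ratio was lower for 32 and higher for 1 of the member pairs.

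**Figure D5:**
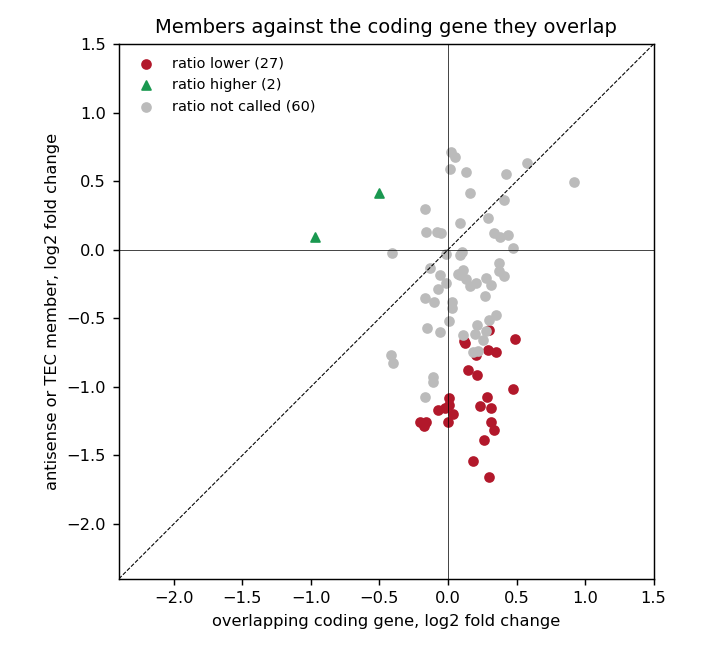
Log2 fold change, Hoxd12-/- over WT, of 89 members (vertical axis) against that of the coding gene each overlaps (horizontal axis), coloured by the limma test of their ratio, with the line of equal change dashed. The 27 pairs with a lower ratio lie below the line, with the coding genes between -0.205 and 0.489, 21 of them above 0, and the members between -0.59 and -1.66.

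The pair with the smallest p in the ratio test was Gm44044 and Rybp. Rybp, a subunit of Polycomb repressive complex 1, had 1020, 821 and 1026 counts in Hoxd12-/- libraries, against 750, 803 and 752 in WT libraries (0.29 ± 0.05, adjusted p = 2.83e-05, edgeR), while Gm44044 within it was lower. The call of Rybp was lost on both TPM scales (adjusted p = 0.17 and 0.18). The log2 ratio of Gm44044 to Rybp changed by -1.35 ± 0.13 (adjusted p = 0.00026, limma). Rybp lies in a stretch of chromosome 6 where coding genes within 5 Mb had a median log2 fold change of 0.34, the highest around any member. Abhd2 had 206, 167 and 221 counts in Hoxd12-/- libraries, against 179, 204 and 200 in WT libraries, with overlapping groups, and the ratio of Gm44639 to Abhd2 changed by -1.24 ± 0.14 (adjusted p = 0.00046).

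Antisense pairs gave the next smallest p values. The ratio of Gm15541 to Prx, which encodes a protein of myelinating Schwann cells, changed by -1.45 ± 0.19, with Gm15541 at 96.8, 111 and 110 counts in Hoxd12-/- libraries, against 206, 274 and 218 in WT libraries. The ratio of Gm49747 to Tm9sf1 changed by -1.01 ± 0.13, that of Gm4419 to Ywhaq by -1.11 ± 0.15 and that of the TEC gene Gm37621 to the phosphatase subunit gene Ppp2r3a by -1.12 ± 0.16. Ywhaq, which encodes a 14-3-3 protein, had 1917, 1547 and 1960 counts in Hoxd12-/- libraries, against 1894, 2110 and 1993 in WT libraries. The groups overlapped in these unscaled counts. In CPM the means were 300.4 ± 7.27 in Hoxd12-/- and 339.0 ± 7.13 in WT libraries (SD). The call of Ywhaq (-0.17 ± 0.04, adjusted p = 0.0028, edgeR) was lost on the TPM scale (adjusted p = 0.53).

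Pairs with both genes called in opposite directions were all of a lower member with a higher coding gene. Pds5a, which encodes a cohesin regulator, had 479, 480 and 493 counts in Hoxd12-/- libraries, against 388, 399 and 376 in WT libraries (0.30 ± 0.07, adjusted p = 0.0017, edgeR). It overlaps Gm42729 on the opposite strand (ratio change -1.86 ± 0.31, adjusted p = 0.0018, limma) and C030017G13Rik on its own strand (-0.85 ± 0.22, adjusted p = 0.022), so both of these pairs rest on the same coding values. Rai14 had 387, 339 and 388 counts in Hoxd12-/- libraries, against 295, 294 and 279 in WT libraries (0.33 ± 0.07), and its antisense gene Gm10389 had 29.7, 18.1 and 24.8 counts in Hoxd12-/- libraries, against 52.1, 70.1 and 57.0 in WT libraries. Their ratio changed by -1.60 ± 0.25 (adjusted p = 0.0017). Nav2, a neuronal navigator gene, had 87, 88 and 84 counts in Hoxd12-/- libraries, against 62, 59.0 and 62.0 in WT libraries (0.48 ± 0.15, adjusted p = 0.020, edgeR). The call of Nav2 was lost without Hoxd12-/- replicate 2 (adjusted p = 0.10, edgeR) or WT replicate 2 (0.085), and with DESeq2 (0.12). It was also lost on both TPM scales (adjusted p = 0.090 and 0.105, limma). The TEC gene Gm44913 in the intron of Nav2 was lower (-1.02 ± 0.15).

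In the 2 pairs whose ratio was higher the coding gene was lower and the member was not called. Pzp, a protease inhibitor gene, had 25.6, 17.1 and 20 counts in Hoxd12-/- libraries, against 41.6, 35.98 and 43.0 in WT libraries (-0.97 ± 0.25, adjusted p = 0.0035, edgeR), while its antisense gene Gm10069 had overlapping groups (0.09 ± 0.23). Mt2, a metallothionein gene, had 4301, 3918 and 4135 counts in Hoxd12-/- libraries, against 5370, 6179 and 5692 in WT libraries (-0.50 ± 0.05, adjusted p = 2.29e-09), while its antisense gene Gm45774 had overlapping groups (0.41 ± 0.24). The adjusted p of the ratio was 0.035 for Gm10069 and 0.046 for Gm45774.

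Shared sequence limits how far single members can be read. Counts were whole numbers in every library for 8 members (2 lower, 1 higher) and fractional in some library for 133, which is how an estimated count divides reads between genes. Gm37110 and Gm44183 have identical transcripts and identical counts in every library, and they are 1 set of reads (log2 fold change -0.38, not called). Gm47164 and Gm47578 share 1630 of their 31-base words and had log2 fold changes of -0.27 and 0.61, of which the first was called. Gm17134, with 33.5, 21.1 and 51.6 counts in Hoxd12-/- libraries, against 0, 62.9 and 0.90 in WT libraries, shows how unevenly an estimate can fall for a gene whose exons lie wholly within those of Ptbp1 on the other strand. The kit was a stranded one, but how strand was used in counting is not stated, so reads of members that share exon bases with a coding gene cannot be told apart from those of the coding gene with certainty.

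Members near the count threshold were less precisely measured. Gm45477 had 14.8, 18.03 and 15.0 counts in Hoxd12-/- libraries, against 23.9, 28.6 and 19.7 in WT libraries, and Gm44103 had 21.6, 14.0 and 25.6 counts in Hoxd12-/- libraries, against 22.7, 19.6 and 17.4 in WT libraries. AC165962.1 had 20.7, 20.1 and 32.8 counts in Hoxd12-/- libraries, against 12, 17 and 19.0 in WT libraries. None of these 3 was called. Just outside the threshold, Gm26737, Particl and Gm37760 had mean counts of 19.91, 19.82 and 19.80.

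Promoters were available from RefSeq (GRCm38) for 30 of the members, as 34 sequences from 250 bases before to 50 bases after the start. On either strand the letters TATAAA were present in 3 of these 34 promoters (8.82%), against 13.6% of all 32851 promoters in the table. CCAAT was present in 16 (47.1%), against 37.4% of all promoters, and GGGCGG in 17 (50%), against 35.7%. These matches describe the sequences only.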

How the data were processed

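Each of the 6 libraries had 1 deposited file with expected counts per gene, beside TPM and FPKM, as the authors quantified them. The submitters' processing notes name Bowtie 0.12.2, with mm8 and mm10 as builds. The quantification tool, its annotation and its strand setting are not stated there. Every one of the 55450 gene IDs matched GENCODE M21 (GRCm38).

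Expected counts from the deposited files were rounded to whole numbers and tested with edgeR 4.0.16 (R 4.3.3; TMM scaling, filterByExpr, robust quasi-likelihood fit, group as the only term), with Benjamini-Hochberg adjustment over all 12891 tested genes and a threshold of 0.05. A member's coding gene was the protein-coding gene sharing the most bases with it on either strand. The ratio of each noncoding gene to its coding gene was tested with limma 3.58.1 on log2 CPM (prior count 2). The authors' TPM values served for levels and, as log2(TPM + 1) and log2(TPM + 0.1), for alternative fits; the authors' FPKM values were not used. DESeq2 1.42.0 was a further alternative. The shared 25-base word was searched in GENCODE M21 transcripts with up to 3 mismatches. Scripts were tested on simulated data.

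Genes named are the called members with the largest changes and non-overlapping groups, those with the highest TPM, those with their own symbols, those at the count threshold, the pairs with the smallest ratio p or opposite calls, and their coding genes. Members named for sharing sequence or for both genes of a pair being called were chosen after their values were seen. The members and lists were chosen with earlier results of these data known.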

Additional observations from a re-analysis of the deposited data

How the results depend on the processing

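Of the 58 lower and 8 higher members, 42 and 6 were called in every fit other than the one against a minimum fold and the one without chromosomes 6, 8 and 11. Such lasting calls were not counted over all tested genes. The number of lower members was 44 to 58 and that of higher members 6 to 9 over the scalings, tools, filters and TPM fits, and 51 to 56 and 6 to 8 with 1 library left out. The fit with the replicate number as a block gave 55 lower and 9 higher members. Same-numbered libraries did not deviate together (correlations 0.004, 0.041 and 0.024), so the numbers do not pair them. With the block the call of Gm48632 was lost (adjusted p = 0.051), and the ratio was lower for 25 and higher for 1 of the pairs. Against a minimum fold of 1.2 (glmTreat), 47 members were lower and 5 higher, and 2 overlapping coding genes were lower and 3 higher. Of the members without the word, 8 were lower and 5 higher. That fit called 533 of all 12891 tested genes lower and 273 higher. The share of members called higher was thus above the background there, unlike in the main fit. On log2(TPM + 1) and on log2(TPM + 0.1), 3 coding genes were lower and 11 higher, and 8 members without the word were lower. Of all 12891 tested genes, 749 were lower and 1107 higher on log2(TPM + 1), and 738 and 1086 on log2(TPM + 0.1). More genes were thus higher than lower on these scales, unlike in the main fit. These scales moved the median of all genes to 0.096 and 0.114, and the members' median to -0.20 and -0.26. Without chromosomes 6, 8 and 11, 3 coding genes were lower and 13 higher, against 5 and 18 in the main fit. That fit called 1428 of 10504 tested genes lower and 1106 higher. Leaving out 1 library gave 4 to 8 lower coding genes (8 without WT replicate 1) and 0 to 2 higher ratios. On the same strand alone 1 coding gene was lower and 8 were higher. Members with a mean count of 50 or more had 38 lower, those without shared exon bases 38, antisense genes alone 25 lower and 3 higher, and TEC genes alone 33 lower and 5 higher; these are smaller sets by construction. The ratio was higher for 1 pair with a prior count of 0.5, for 0 on the TPM scale and for 0 of the pairs without shared exon bases, of which 16 were lower. An exact match of the word gave 38 lower and 0 higher, and up to 5 mismatches 45 and 0; these rules were chosen after seeing the data. DESeq2 called 52 members lower and 6 higher, against 1287 lower and 701 higher of all 12891 tested genes.

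Genes that changed sign were none of them called, and the cause was not tested. On log2(TPM + 1) and log2(TPM + 0.1) the log2 fold changes were 0.013 and 0.013 for Sp3os, 0.101 and 0.121 for Abhd2, -0.049 and -0.059 for Ints2, 0.016 and 0.017 for Morc2a, 0.092 and 0.208 for Ppp2r3a, 0.101 and 0.107 for Rab10, and 0.319 and 0.395 for Rab26. Abhd2 was at 0.00 without chromosomes 6, 8 and 11, and Gm44103 at -0.001 with the block. With 1 library left out the ranges were -0.172 to 0.046 for Rab10os, -0.146 to 0.065 for Sp3os, -0.026 to 0.216 for Rab26os, -0.125 to 0.149 for Gm44103, -0.008 to 0.026 for Supt5, -0.035 to 0.215 for Ints2, -0.076 to 0.064 for Rab10, -0.018 to 0.146 for Thumpd3, -0.041 to 0.027 for Abhd2, -0.213 to 0.103 for Ppp2r3a, -0.050 to 0.266 for Rsbn1, -0.144 to 0.124 for Btbd9, and -0.215 to 0.113 for Rab26. Members with a mean count of 20 to 50 were called least often and also had the smallest median log2 fold change (-0.34, against -0.44 at 50 to 200 and -0.67 at 200 or more), and the part of depth in this was not tested.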
